A study of Homo sapiens with 16 samples.

Results

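Genes of the cellular defence against oxidative stress were followed in OVCAR3 cells, an established human ovarian carcinoma line, during exposure to 1,25-dihydroxyvitamin D3 (1,25(OH)2D3), the active hormone made from vitamin D. A list of 36 genes was taken by symbol, from the transcription factor NFE2L2 and its inhibitor KEAP1 to the enzymes that remove peroxides, conjugate electrophiles and supply glutathione, thioredoxin and NADPH. Of the 36, 31 were on the Affymetrix U133A array through a probe set assigned to 1 gene, out of 11963 genes on the array. Each gene was read from its probe set with the highest mean signal on the log2 scale. By that mean, 30 of the 31 were high enough to be among the 7178 genes tested. AKR1C3 was below that level, the 4 probe sets of SOD2 also carried a neighbouring transcript and were not used, and PRDX5, MGST1, AKR1A1 and FTH1 are not analysed here.

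Cells were grown with serum and insulin and received ethanol alone (vehicle, labelled 0 h) or 1,25(OH)2D3, for 8, 24 or 72 h. The design text gives the dose as 0.1 pM, and whether that unit is right could not be checked from the data. Hormone was added at staggered times so that every culture was harvested together, and all cultures had the same ethanol for the same time. Each of these 4 groups had 3 biological replicates on U133A arrays, from 3 independent experiments, and 1 sample on an older U95 array. The cells carry no genetic change made for the study and represent 1 line. The 3 hormone groups were compared with the same 3 vehicle arrays, so their changes are not independent of each other.

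As background, cells meet peroxides and electrophiles with a set of genes that the transcription factor NRF2, encoded by NFE2L2, binds at antioxidant response elements. KEAP1 holds NRF2 in the cytoplasm for degradation until its cysteines are modified, so that NRF2 is controlled mainly at the protein level, which mRNA arrays do not read. Glutathione is made by the glutamate-cysteine ligase GCLC with its modifier GCLM and then by GSS, and is kept reduced by GSR. Thioredoxin is kept reduced by the selenoenzyme TXNRD1, and peroxiredoxins and glutathione peroxidases draw on both systems. TXNIP, an inhibitor of thioredoxin, was first cloned as a gene induced by 1,25(OH)2D3 in leukaemia cells and was named vitamin D3 up-regulated protein at that time.

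The arrays were alike in overall signal. The median signal ran from 167.7 to 195.5 over the 12 U133A arrays, and correlations between arrays ran from 0.958 to 0.976. The hormone response was present in all 9 treated arrays, since CYP24A1, the vitamin D catabolic enzyme, had a mean signal of 129 under vehicle and 6185, 7330 and 7430 at 8, 24 and 72 h. All 12 listed ovarian carcinoma markers were above the test level, among them MUC16, PAX8 and WT1, and 1, 4 and 4 of these 12 passed the test at 8, 24 and 72 h, while 3 of 8 fibroblast, 3 of 6 measured leukocyte and 1 of 6 endothelial markers were, and none of these 7 passed the test at any time. In a bulk RNA sample a smaller share of cells with a transcript and less transcript per cell cannot be told apart.

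Few of the genes passed the test, and those that did rose. With limma and Benjamini-Hochberg adjustment over the 7178 genes tested, 0 of 30 passed an adjusted p of 0.05 at 8 h, when 0.711% of all genes rose and 0.0557% fell. At 24 h TXNRD1 and GCLC rose and 0 fell, which is 6.67% of the 30 against 2.45% of all genes rising and 1.62% falling. At 72 h TXNRD1, GCLC and GSTM3 rose and 0 fell, 10% of the 30, against 3.86% of all genes rising and 2.98% falling. With 30 genes, a share of 6.67% is 2 genes, and no test of the list as a whole was made. The list was chosen with earlier results of these data known, so its shares, here and below, are not such a test. The counts of all genes also moved with single arrays, from 292 to 189 at 24 h without vehicle replicate 3 and from 491 to 324 at 72 h without vehicle replicate 1 or 3. These counts come from a main fit that does not use the replicate number. With that number as a block, 0, 4 and 4 of the 30 passed at 8, 24 and 72 h, all of them rises. Of the 7178 genes, 84, 420 and 653 then passed.

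Size of change and call did not go together throughout, since GSR, described with glutathione recycling, had fitted changes of 0.85 and 0.97 at 8 and 24 h and did not pass. The median change of the 30, the called genes included, was 0.05, 0.06 and 0.10 on the log2 scale at 8, 24 and 72 h, against -0.004, -0.02 and -0.01 for all genes tested, and 18, 19 and 20 of the 30 had a positive change. None reached a log2 change of 1 in either direction, where 24, 79 and 125 of all genes did. Their median change regardless of sign was 0.10, 0.14 and 0.13, and that of all genes was 0.10, 0.13 and 0.15. A moderated F test for any change over the course was passed by TXNRD1 and GSTM3, 2 of 30, where 5.21% of all genes passed.

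**Figure D1:**
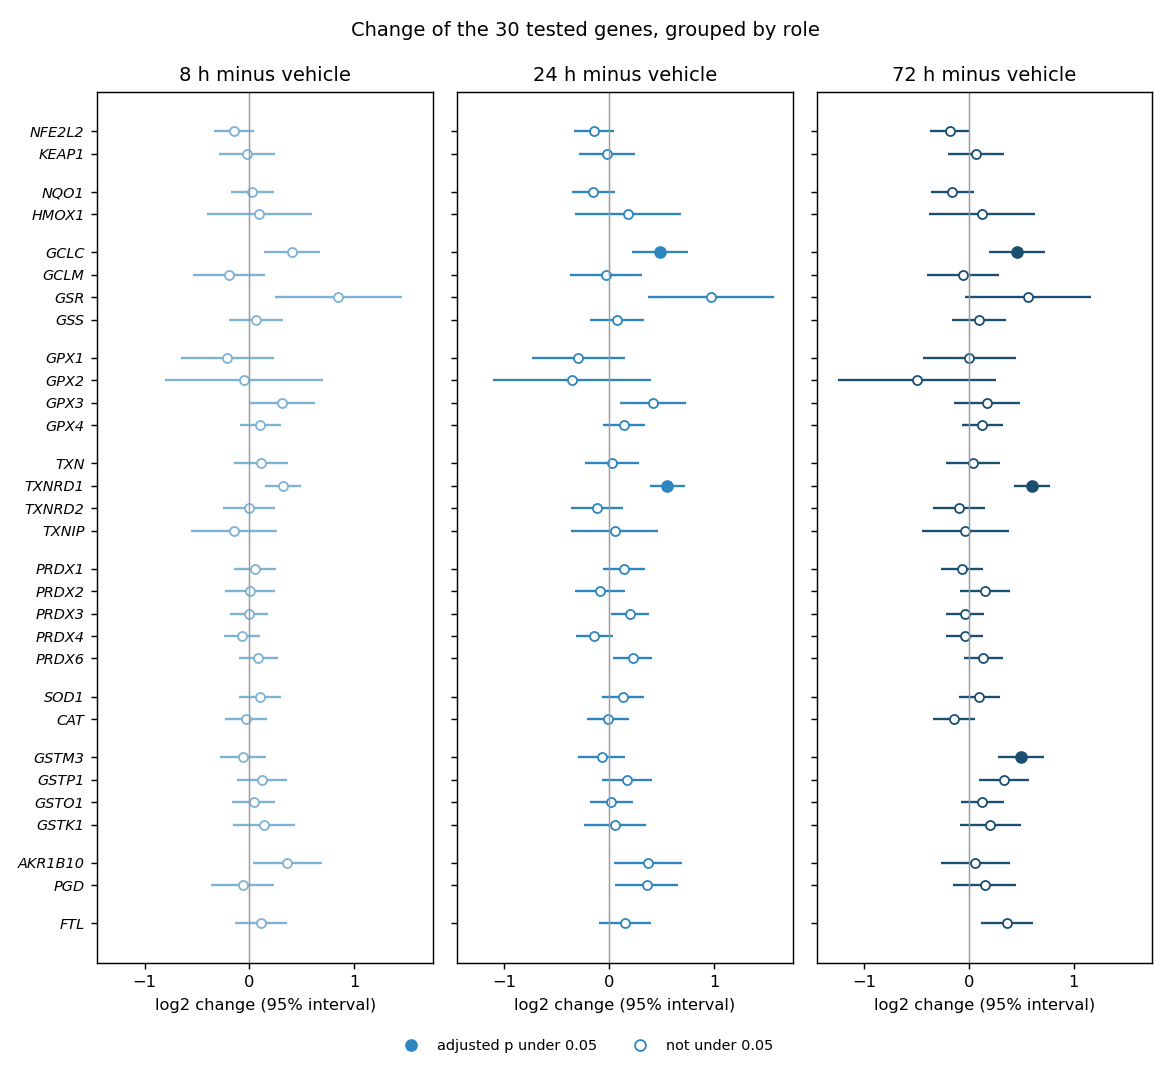
Log2 change from vehicle of the 30 tested genes at 8, 24 and 72 h, with 95% intervals from the limma fit, grouped from top to bottom by role; filled points passed an adjusted p of 0.05. TXNRD1 and GCLC are filled at 24 h and joined by GSTM3 at 72 h, while most other intervals cross 0.

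The start regions of the 3 genes that rose were read to show whether they hold the letters that NRF2 is known to bind. RefSeq (GRCh38.p14) gave start regions for 28 of the 36 genes, and the 250 bases before each start were searched on both strands for the antioxidant response element core TGACNNNGC, and for a vitamin D receptor repeat, in which AGGTCA or AGTTCA stands 2 times in the same direction with 3 bases between. The regions are printed 5′ to 3′ in the direction of the gene and end at the base before the start, with a core match in capitals.
TXNRD1 first start, chr12:104215529-104215778, + strand: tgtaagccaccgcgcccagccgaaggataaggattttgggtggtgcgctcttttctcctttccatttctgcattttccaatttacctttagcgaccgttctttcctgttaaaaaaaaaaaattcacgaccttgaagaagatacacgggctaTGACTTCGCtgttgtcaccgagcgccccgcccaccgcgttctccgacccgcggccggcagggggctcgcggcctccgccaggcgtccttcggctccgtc
TXNRD1 second start, chr12:104286782-104287031, + strand: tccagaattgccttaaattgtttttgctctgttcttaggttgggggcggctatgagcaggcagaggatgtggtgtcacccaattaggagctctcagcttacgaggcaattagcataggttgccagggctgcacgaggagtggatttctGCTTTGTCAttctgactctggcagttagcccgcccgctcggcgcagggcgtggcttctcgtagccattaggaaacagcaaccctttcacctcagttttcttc
GCLC, chr6:53545102-53545351, - strand: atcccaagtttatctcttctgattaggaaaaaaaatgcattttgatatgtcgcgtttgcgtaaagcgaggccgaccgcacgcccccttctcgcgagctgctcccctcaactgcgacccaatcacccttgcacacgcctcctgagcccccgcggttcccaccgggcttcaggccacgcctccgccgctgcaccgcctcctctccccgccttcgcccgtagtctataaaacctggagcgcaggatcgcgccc
GSTM3, chr1:109741039-109741288, - strand: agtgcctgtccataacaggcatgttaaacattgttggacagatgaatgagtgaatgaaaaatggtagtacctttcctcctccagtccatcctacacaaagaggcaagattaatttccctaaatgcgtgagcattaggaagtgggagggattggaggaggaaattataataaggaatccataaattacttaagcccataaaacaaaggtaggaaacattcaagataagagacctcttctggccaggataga
TXNRD1 had 1 core match before each of its 2 starts, the nearest base 91 and 94 bases before the start, the second lying on the opposite strand. Neither GCLC nor GSTM3 had a match in this window. A match describes the letters only, and no match says nothing of elements outside the window.

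No start region was available here for AKR1B10, FTH1, GSR, GSS, HMOX1, PRDX1, PRDX6 and SOD1. The core was present before at least 1 start of 7 of the 28 genes, or 25%, against 13.2% of the 27305 genes with a start region. Some genes have several starts, and counted by start region the shares were 18.6% of 43 and 10.9% of 35116. Of these 7 genes, only TXNRD1 rose. The other 6 are shown with 16 bases on either side because they carry the same core and did not pass the test at any time.
GCLM, chr1:93909440-93909480, - strand: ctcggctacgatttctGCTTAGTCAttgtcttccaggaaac
GSTP1, chr11:67583730-67583770, + strand: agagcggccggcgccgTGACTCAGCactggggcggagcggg
GSTO1, farther site, chr10:104254650-104254690, + strand: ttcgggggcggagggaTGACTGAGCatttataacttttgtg
GSTO1, nearer site, chr10:104254715-104254755, + strand: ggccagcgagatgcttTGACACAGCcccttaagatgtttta
GPX2, chr14:64942843-64942883, - strand: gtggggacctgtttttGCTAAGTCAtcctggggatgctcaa
PGD, chr1:10398847-10398887, + strand: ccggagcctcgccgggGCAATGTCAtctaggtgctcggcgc
KEAP1, farther site, chr19:10502801-10502841, - strand: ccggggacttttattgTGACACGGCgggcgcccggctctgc
KEAP1, nearer site, chr19:10502778-10502818, - strand: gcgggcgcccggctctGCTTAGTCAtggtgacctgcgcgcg
The match in GSTP1, which encodes a glutathione transferase, lay 58 bases before the start, and that in GCLM lay 26 bases before it. KEAP1 and GSTO1 each held 2 matches. The vitamin D receptor repeat was in 0 of the 28 genes and in 5 of 27305 genes, or 0.0183%, so that exact repeats of these letters were rare in this window.

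The thioredoxin system gave the clearest change, and it came from 1 of its 4 genes. TXNRD1, the cytosolic thioredoxin reductase, had signals of 3746, 3558 and 3588 on the vehicle arrays. They were 4499, 4574 and 4529 at 8 h, 5474, 5285 and 5268 at 24 h, and 4979, 5573 and 6034 at 72 h. Every treated array lay above every vehicle array, and the 24 h arrays all lay above the 8 h arrays, while the 72 h arrays were more spread and overlapped those at 24 h.

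The mean signal of TXNRD1 was 3631 ± 101 (SD, n = 3) under vehicle and 5528 ± 529 (SD, n = 3) at 72 h. TXNRD1 rose 1.47-fold at 24 h (log2 change 0.56, SE 0.080, limma adjusted p = 5.14e-04) and 1.52-fold at 72 h (0.60, adjusted p = 1.67e-04). These folds, like all here, are on the scale of log2(signal + 15.8), which understates the change of weak genes, most for the weakest. At 8 h its log2 change was 0.32 (adjusted p = 0.0997), which passed with array weights (0.0244) or without the array of 72 h replicate 1 (0.0399). The calls at 24 and 72 h held in every alternative run.

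TXN, TXNRD2 and TXNIP did not pass at any time. TXN, thioredoxin itself, had vehicle signals of 5299 to 6716 and treated signals of 5091 to 7136, so the groups overlapped throughout. TXNRD2, the mitochondrial reductase, had log2 changes of -0.01, -0.12 and -0.10. TXNIP had signals of 251.7, 294.8 and 278.0 under vehicle, 294.7, 215.3 and 234.4 at 8 h, 262.5, 326.2 and 270.4 at 24 h, and 211.1, 368.7 and 246.2 at 72 h. Its groups overlapped at every time, with log2 changes of -0.15, 0.05 and -0.03, and its 2 weaker probe sets ranged from -0.63 to -0.04.

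**Figure D2:**
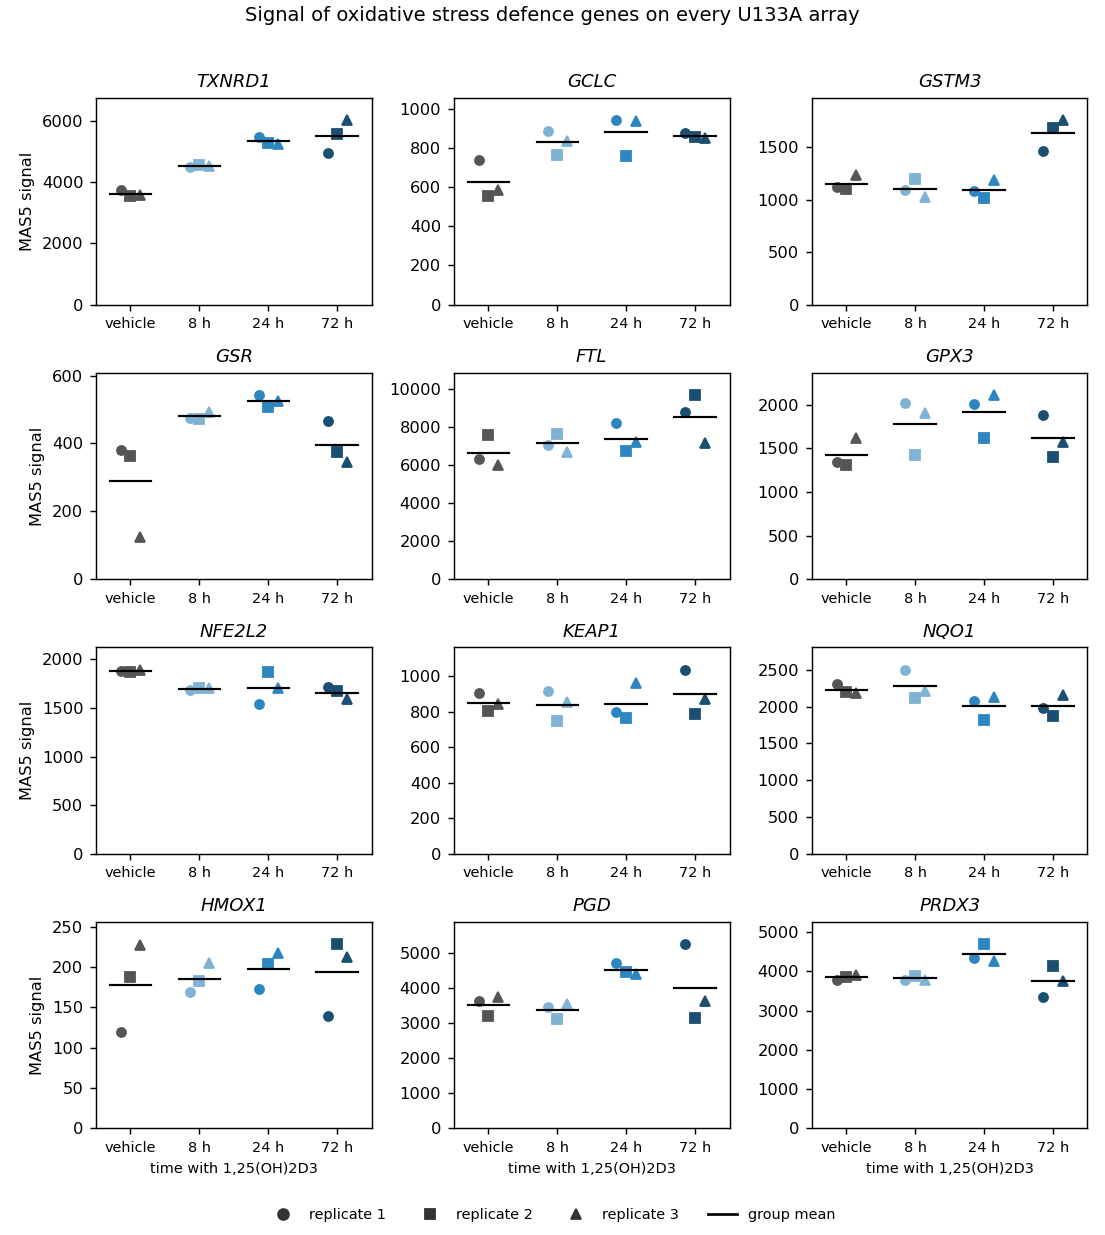
MAS5 signal (linear scale, arbitrary units, axes from 0) of 12 defence genes on every U133A array for vehicle and 8, 24 and 72 h with 1,25(OH)2D3, with the replicate number as the marker shape and a line at the mean of 3 arrays. TXNRD1 is higher on all treated arrays, GSTM3 only on those of 72 h, and the vehicle level of GSR is set by 1 low array at 123.2.

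Among the genes of glutathione synthesis and recycling, the rate-limiting subunit GCLC passed the test at 24 and 72 h. Its partner GCLM did not pass at any time, and the changes of GCLC and GCLM were not tested against each other. GCLC had signals of 738.5, 553.4 and 587.7 under vehicle, 885.8, 762.0 and 837.7 at 8 h, 941.4, 761.5 and 940.6 at 24 h, and 876.4, 854.5 and 853.4 at 72 h. All 9 treated arrays lay above all vehicle arrays, the nearest pair being 738.5 and 761.5. GCLC rose 1.40-fold at 24 h (log2 change 0.49, SE 0.12, limma adjusted p = 0.0392) and 1.38-fold at 72 h (0.46, adjusted p = 0.0359), and its change at 8 h was 0.40 (adjusted p = 0.278). A second GCLC probe set gave 0.27, 0.63 and 0.50.

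The GCLC calls rested on few arrays. At 24 h the adjusted p was 0.166 or 0.153 without vehicle replicate 2 or 3, 0.157 or 0.132 without 24 h replicate 1 or 3, and 0.0561 without 8 h replicate 3, and at 72 h it was 0.149 or 0.13 without vehicle replicate 2 or 3 and 0.092, 0.0689 and 0.0688 without 72 h replicate 1, 2 and 3. Without the signal filter it was 0.0582 and 0.0523, with median centring 0.0651 and 0.0618, and in a fit of only the groups compared 0.0898 and 0.0627, and the F test over the course gave 0.0691. GCLM, the modifier subunit, had log2 changes of -0.20, -0.03 and -0.06, with a wide 72 h group of 939.2, 530.4 and 693.0. GSS, which completes glutathione, had changes of 0.06, 0.08 and 0.10.

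GSR, glutathione reductase, had the largest fitted changes of the list at 8 and 24 h, and they turned on a single array. Its signals were 381.7, 364.5 and 123.2 under vehicle, 476.4, 473.6 and 492.9 at 8 h, 543.0, 506.6 and 525.3 at 24 h, and 466.9, 374.4 and 344.5 at 72 h. All 8 h and 24 h arrays lay above the vehicle arrays, and the array of vehicle replicate 3 lay far below the other two. The log2 changes were 0.85, 0.97 and 0.56 with limma adjusted p of 0.345, 0.0739 and 0.286, and without vehicle replicate 3 they were 0.35, 0.48 and 0.07, the 24 h value having an adjusted p of 0.125. Without vehicle replicate 1 or 2 the 24 h change passed (limma adjusted p = 0.031 and 0.0405), as it did with the replicate number as a block (0.0423). GSR is described in full because of that low array and was chosen after its values were seen.

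One glutathione transferase rose late. GSTM3, a mu-class transferase that joins glutathione to electrophiles, had signals of 1124, 1097 and 1234 under vehicle, 1093, 1194 and 1028 at 8 h, 1079, 1020 and 1185 at 24 h, and 1466, 1686 and 1756 at 72 h. All 72 h arrays lay above all 9 others, and the earlier groups overlapped the vehicle arrays. GSTM3 rose 1.41-fold at 72 h (log2 change 0.50, SE 0.10, limma adjusted p = 0.00714), and its changes at 8 and 24 h were -0.06 and -0.07. That call held in every alternative run, although mu-class genes are close in sequence and cross-hybridisation of this probe set with them was not tested.

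The other transferases did not pass. GSTP1 had vehicle signals of 5857, 5608 and 4755 and 72 h signals of 7399, 6098 and 6901, which did not overlap, and its log2 change at 72 h was 0.33 (limma adjusted p = 0.0972). GSTO1 had changes of 0.04, 0.02 and 0.13 and GSTK1 of 0.14, 0.05 and 0.21, with all groups overlapping vehicle. Thus at 72 h the 4 measured transferases had positive changes and 1 of them passed the test.

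The regulators NFE2L2 and KEAP1 and the genes NQO1 and HMOX1 did not pass the test at any time, whereas TXNRD1 and GCLC, described above, did at 24 and 72 h. NFE2L2 had signals of 1879, 1876 and 1896 under vehicle, 1684, 1707 and 1702 at 8 h, 1541, 1876 and 1707 at 24 h, and 1712, 1676 and 1591 at 72 h. The arrays at 8 and 72 h lay below all vehicle arrays and 1 of those at 24 h reached the vehicle level, with log2 changes of -0.15, -0.14 and -0.18 and a lowest limma adjusted p of 0.271. KEAP1 had signals of 902.8, 805.4 and 843.9 under vehicle, 915.5, 747.1 and 853.7 at 8 h, 799.2, 763.1 and 963.2 at 24 h, and 1037, 785.6 and 872.5 at 72 h. Its groups overlapped at every time, and the changes were -0.02, -0.02 and 0.07.

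NQO1, the quinone reductase most often used as a readout of NRF2, had signals of 2307, 2203 and 2188 under vehicle, 2504, 2111 and 2218 at 8 h, 2079, 1819 and 2134 at 24 h, and 1983, 1874 and 2160 at 72 h. The 24 h and 72 h arrays all lay below the vehicle arrays, with log2 changes of -0.15 and -0.16 (limma adjusted p = 0.527 and 0.401), and 95% intervals of -0.36 to 0.05 at both. Its 2 weaker probe sets had negative changes at every time. HMOX1, the inducible haem oxygenase, was weak, with signals of 119.2, 187.2 and 227.1 under vehicle, 169.0, 182.5 and 204.9 at 8 h, 172.4, 204.2 and 217.3 at 24 h, and 139.4, 228.4 and 212.8 at 72 h. Its groups overlapped at every time, with log2 changes of 0.09, 0.18 and 0.13 and a 95% interval of -0.37 to 0.63 at 72 h.

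The glutathione peroxidases gave no call in the main fit. GPX3, the secreted peroxidase, had signals of 1337, 1313 and 1619 under vehicle, 2018, 1421 and 1898 at 8 h, 2008, 1620 and 2110 at 24 h, and 1875, 1404 and 1566 at 72 h. The 24 h arrays lay above the vehicle arrays by a margin of 1620 to 1619, while the other times overlapped. The log2 changes were 0.31, 0.42 and 0.18, with a limma adjusted p of 0.16 at 24 h. It became 0.0432 with array weights and 0.0309 with the replicate number as a block. GPX4, which reduces lipid hydroperoxides in membranes, had changes of 0.10, 0.14 and 0.13, and GPX1, the cytosolic enzyme, of -0.21, -0.29 and 0.00. GPX2, the epithelial enzyme, had -0.05, -0.36 and -0.49, with 1 array of 72 h at 64.4 and the other two at 228.5 and 239.4.

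None of the 5 measured peroxiredoxins, thiol enzymes that reduce hydrogen peroxide, passed at any time. PRDX3, the mitochondrial member, had signals of 3772, 3867 and 3895 under vehicle, 3791, 3892 and 3786 at 8 h, 4329, 4692 and 4273 at 24 h, and 3353, 4139 and 3765 at 72 h. Only the 24 h arrays lay above the vehicle arrays, with a log2 change of 0.20 (limma adjusted p = 0.266), against -0.01 at 8 h and -0.04 at 72 h. A second, weaker PRDX3 probe set had the opposite sign at 24 h, with -0.24, -0.11 and -0.70, and the average of both gave 0.05 at 24 h and -0.37 at 72 h, neither passing. PRDX6 was likewise above vehicle on all 24 h arrays (0.22, adjusted p = 0.222) and PRDX4 below it (-0.14, adjusted p = 0.479). PRDX1 and PRDX2, the cytosolic pair, had changes between -0.09 and 0.16, and a probe set of PRDX2 that was not used gave 0.40 at 24 h.

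Neither SOD1 nor CAT passed at any time. CAT, the peroxisomal catalase, had signals of 2213, 2174 and 2021 under vehicle, 2150, 2023 and 2087 at 8 h, 2109, 2226 and 2018 at 24 h, and 2127, 2001 and 1705 at 72 h. The groups overlapped, with log2 changes of -0.03, -0.01 and -0.14. SOD1, the copper and zinc dismutase, had changes of 0.10, 0.13 and 0.10, and its vehicle signals of 8224 to 9519 overlapped those of every time.

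The reductases, the NADPH source and ferritin gave no call in the main fit either. PGD, which makes NADPH in the pentose phosphate pathway, had signals of 3636, 3205 and 3766 under vehicle, 3468, 3115 and 3552 at 8 h, 4713, 4464 and 4411 at 24 h, and 5262, 3145 and 3645 at 72 h. The 24 h arrays lay above all vehicle arrays, and at 72 h only replicate 1 did. Its log2 changes were -0.06, 0.36 and 0.15, with a limma adjusted p of 0.221 at 24 h that became 0.0337 without the array of 72 h replicate 1, which enters this comparison only through the shared estimate of the spread.

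AKR1B10, an aldo-keto reductase and known NRF2 target, had vehicle signals of 192.5, 213.9 and 226.1, below all arrays at 8 h (265.2 to 282.0) and 24 h (268.6 to 286.6) but not at 72 h (201.0 to 262.5). Its log2 changes were 0.36, 0.37 and 0.06, and none passed. AKR1C3, which reduces steroids and prostaglandins, was under the test level, with signals of 39.4, 44.8 and 5.77 under vehicle, 29.6, 40.5 and 6.49 at 8 h, 79.8, 37.8 and 66.3 at 24 h, and 188.2, 81.6 and 74.4 at 72 h. All 72 h arrays lay above vehicle, and its log2 change of 1.54 had a limma adjusted p of 0.103 when all 11963 genes were tested. AKR1C1 and AKR1C2 are close relatives in sequence, and signal from them on this probe set was not tested.

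FTL, the ferritin light chain that stores iron with FTH1, had signals of 6321, 7564 and 6029 under vehicle, 7073, 7659 and 6680 at 8 h, 8203, 6717 and 7220 at 24 h, and 8815, 9690 and 7157 at 72 h. The groups overlapped at every time because vehicle replicate 2 was high and 72 h replicate 3 low. The log2 change at 72 h was 0.36 (limma adjusted p = 0.0824), and a second probe set gave 0.41. It passed without vehicle replicate 2 (0.0421), without 72 h replicate 3 (0.0211), with the mean of both probe sets (0.0398) and with the replicate number as a block (0.0388). FTL has many pseudogenes, and its probe sets are of the type that matches several transcripts.

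Counts of separated groups can be set against those of all genes. At 8 h 4 of the 30 (GCLC, GSR, TXNRD1 and AKR1B10) lay above all vehicle arrays and 2 (NFE2L2 and GCLM) below, 13.3% and 6.67%, against 6.51% and 6.95% of all genes. At 24 h 8 (GCLC, GSR, GPX3, TXNRD1, PRDX3, PRDX6, AKR1B10 and PGD) lay above and 2 (NQO1 and PRDX4) below, 26.7% and 6.67%, against 9.32% and 11.2%. At 72 h 4 (GCLC, TXNRD1, GSTM3 and GSTP1) lay above and 2 (NFE2L2 and NQO1) below, 13.3% and 6.67%, against 11.7% and 12.7%. GCLC and TXNRD1 were thus above all vehicle arrays at each time.

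The differences between times were tested as well. GSTM3 was higher at 72 h than at 24 h (log2 difference 0.57, limma adjusted p = 0.0435) and than at 8 h (0.56, adjusted p = 0.00775), 1 of 30 each, where 0.0836% and 1.38% of all genes were higher at the later time and 0.0697% and 1.14% lower. The first of these calls was lost without each array in turn, at adjusted p up to 0.207, except without 72 h replicate 1, and it was also lost without the filter (0.0639), with quantile normalization (0.0527), with median centring (0.0695), with all probe sets averaged (0.0514) and in a fit of only the groups compared (0.245). Between 8 and 24 h 0 of 30 passed, where 0.362% of all genes were higher and 0.279% lower. TXNRD1 differed by 0.24 between 8 and 24 h (adjusted p = 0.35), by 0.28 between 8 and 72 h (0.0853) and by 0.05 between 24 and 72 h (0.882, 95% interval -0.12 to 0.21).

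The U95 arrays gave 1 sample per time and so a check of sign only, with no test. Of the 30, 24 were above a matching signal level on that type. Their log2 ratio to the U95 vehicle array had the sign of the U133A change for 13 at 8 h, 18 at 24 h and 15 at 72 h, or 54.2%, 75% and 62.5%, against 57.7%, 60.3% and 64.7% of the 4167 genes on both types. Of those that passed the U133A test, 34 of 36, 183 of 201 and 304 of 335 had the same sign, or 94.4%, 91% and 90.7%. Of the defence genes that passed, 2 of 2 had it at 24 h and 2 of 3 at 72 h. TXNRD1 had U95 signals of 4250, 4809, 4602 and 5016 at 0, 8, 24 and 72 h, ratios of 0.18, 0.11 and 0.24. GCLC had 448.1, 570.6, 636.8 and 497.9, ratios of 0.34, 0.49 and 0.15. Both had the U133A sign at every time, and the TXNRD1 ratios were smaller than its U133A changes.

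GSTM3 had the opposite sign. Its U95 signals were 268.8, 246.6, 176.8 and 172.5, a ratio of -0.60 at 72 h where the U133A change was 0.50, and 2 weaker U95 probe sets gave -0.13 and 0.06. GPX3 had the largest U95 ratios at 8 and 24 h among the 24 genes, 0.62 and 0.89, with signals of 589.8, 914.3, 1102 and 629.7. GSR had 401.8, 510.6, 466.7 and 371.0, ratios of 0.34, 0.21 and -0.11, where its U133A changes without vehicle replicate 3 were 0.35, 0.48 and 0.07. AKR1C3, below the level on both types, had 70.0, 70.8, 59.9 and 162.1, a ratio of 1.07 at 72 h.

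**Figure D3:**
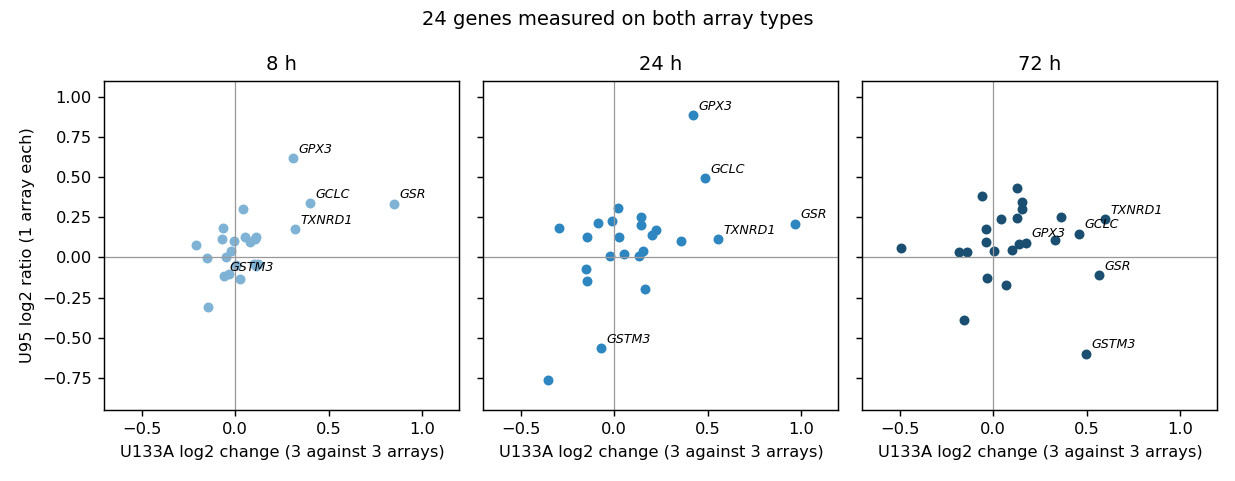
U133A log2 change (x axis, 3 against 3 arrays) and U95 log2 ratio (y axis, 1 array against 1) of the 24 defence genes on both array types, 1 panel per time and 1 point per gene. Points in the upper right and lower left quadrants have the same sign, 18 of 24 at 24 h, and GSTM3 at 72 h lies in the lower right at 0.50 and -0.60.

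Other genes of redox metabolism, a list of 87 of which 73 were on the array and 58 were tested, are given for comparison. At 8 h 0 passed, at 24 h 6 rose and 0 fell, and at 72 h 10 rose and 1 fell, so that 10.3% and 17.2% of the 58 rose at 24 and 72 h, against 2.45% and 3.86% of all genes, and 0% and 1.72% fell, against 1.62% and 2.98%. This list was chosen with earlier results of these data known, so these shares are not a test of it. With array weights or the replicate block 2 fell at 24 h, EPHX1 and CYB5R3. The median change of the 58 at 72 h was 0.05. The 4 largest rises at both times were the same genes, NOX4, NQO2, IDH2 and SELENOP. Each of them had a larger change at 72 h than any of the 30 tested defence genes. AKR1C3, the defence gene under the test level, had 1.54 at that time, below NOX4 and above NQO2, IDH2 and SELENOP.

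NOX4, an NADPH oxidase that releases hydrogen peroxide, had signals of 287.5, 263.1 and 147.7 under vehicle, 409.3, 300.3 and 197.6 at 8 h, 785.0, 448.6 and 663.4 at 24 h, and 860.9, 647.7 and 795.9 at 72 h. The 24 h and 72 h arrays lay above all vehicle arrays. NOX4 rose by a log2 change of 1.40 (SE 0.27, limma adjusted p = 0.00503) and 1.70 (adjusted p = 7.22e-04). NQO2, a quinone reductase related to NQO1 that uses a different hydride donor, had 128.9, 96.8 and 126.7 under vehicle, 175.0, 155.9 and 207.8 at 8 h, 300.3, 241.0 and 274.3 at 24 h, and 409.6, 291.4 and 371.8 at 72 h. All its treated arrays lay above vehicle, and it rose by 1.11 and 1.48 (adjusted p = 0.00188 and 1.04e-04). Its vehicle mean of 117.4 was below the test level of 168.9, so that NQO2 was tested through its treated arrays, and with all 11963 genes tested the adjusted p was 0.00767 and 5.94e-04.

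IDH2, the mitochondrial isocitrate dehydrogenase that makes NADPH, had signals of 467.5, 512.4 and 429.4 under vehicle, 578.5, 479.9 and 459.5 at 8 h, 1059, 922.4 and 803.8 at 24 h, and 1477, 1127 and 1026 at 72 h. It overlapped vehicle at 8 h and lay well above it later, rising by 0.95 and 1.32 (limma adjusted p = 9.5e-04 and 2.8e-05). The average of its 2 probe sets gave smaller rises of 0.69 and 0.98 (limma adjusted p = 0.0206 and 0.00109). SELENOP, a secreted selenium carrier, had 337.8, 478.6 and 193.5 under vehicle, 473.7, 510.7 and 307.4 at 8 h, 793.0, 853.7 and 597.7 at 24 h, and 711.0, 937.4 and 755.6 at 72 h. It rose by 1.19 and 1.29 (adjusted p = 0.0128 and 0.00512), and the 24 h call was lost without vehicle replicate 3 (0.0578), 24 h replicate 1 (0.0551) or 24 h replicate 2 (0.0546). On the U95 arrays NQO2, IDH2 and SELENOP had ratios of 0.64, 0.92 and 1.31 at 72 h.

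EPHX1, the microsomal epoxide hydrolase, was the gene that fell. Its signals were 1798, 1914 and 1605 under vehicle, 1881, 1590 and 1419 at 8 h, 1305, 1493 and 1079 at 24 h, and 1435, 1110 and 854.6 at 72 h. The 24 h and 72 h arrays lay below all vehicle arrays, and at 72 h its log2 change was -0.67 (limma adjusted p = 0.0231). The call was lost without vehicle replicate 1 (0.0778) or 2 (0.0915), without 72 h replicate 2 (0.0544) or 3 (0.0899) and with median centring (0.064). At 24 h its change was -0.46 (adjusted p = 0.175), which passed with array weights (0.0491) or the replicate number as a block (0.033). The U95 ratios of EPHX1 were 0.33, 0.08 and -0.29 at 8, 24 and 72 h, with the U133A sign only at 72 h.

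The remaining rises are named here after their values were seen. ALDH3A2, a fatty aldehyde dehydrogenase, and HMOX2, the constitutive haem oxygenase, rose at 24 and 72 h, by 0.63 and 0.42 and by 0.69 and 0.71. MGST3, a microsomal glutathione transferase, had signals of 2924, 3561 and 3334 under vehicle and 5145, 4298 and 4387 at 72 h and rose by 0.49 (limma adjusted p = 0.00326). ALDH2, PGLS and MSRB2 rose at 72 h by 0.45, 0.39 and 0.69. Of 21 alternatives, the call at 72 h was lost in 9 for ALDH3A2, 10 for ALDH2, 13 for PGLS, 3 for HMOX2, 1 for MSRB2 and 0 for MGST3. At 24 h it was lost in 6 for HMOX2, without vehicle replicate 1 or 2, 24 h replicate 1 or 3 or the filter and in a fit of only the groups compared, and in 0 for ALDH3A2. Without the array of vehicle replicate 1 the count at 72 h was 6, and the U95 ratio of HMOX2 at 72 h was -0.14.

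**Figure D4:**
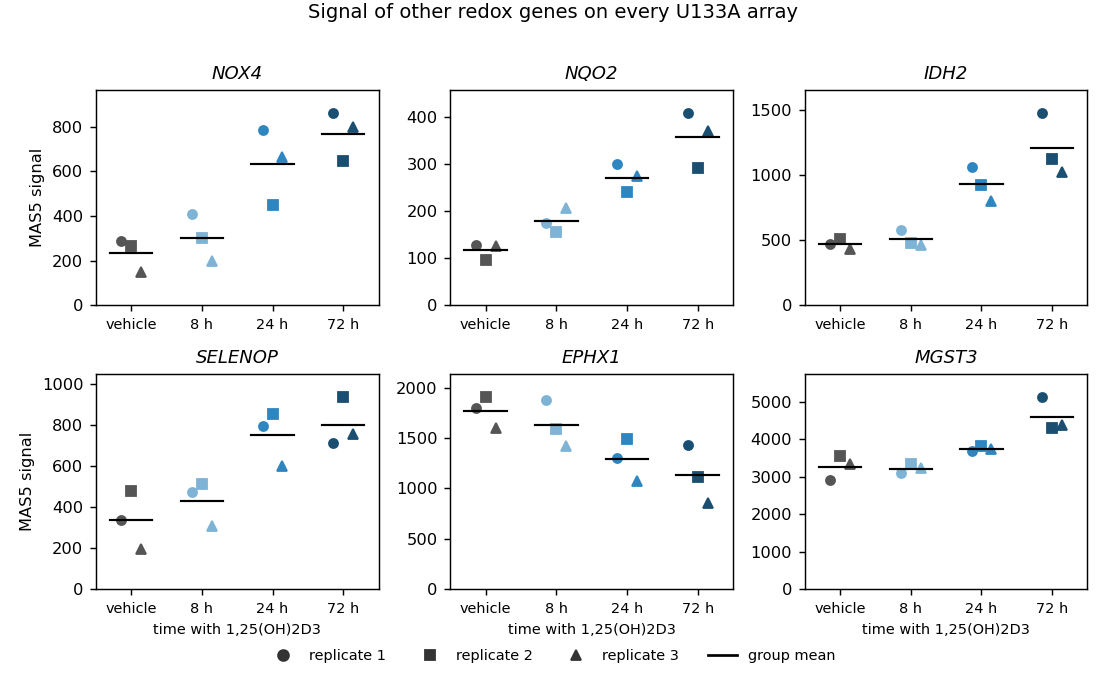
MAS5 signal (linear scale, axes from 0) of 6 other redox genes on every U133A array for vehicle and 8, 24 and 72 h, with the replicate number as the marker shape and a line at the mean of 3 arrays. NOX4, NQO2, IDH2 and SELENOP lie above the vehicle arrays at 24 and 72 h, EPHX1 lies below them, and MGST3 is highest at 72 h.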

How the data were processed

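Each deposited value is the intensity of 1 probe set on a linear scale. The submitters' processing notes name MAS5 for it, with its version not given in the sources used here. The 2% trimmed mean was 500.2 on every U133A array, and the values were used as deposited. Signals of different probe sets are not comparable. Precision is limited by the number of arrays. Of 22283 U133A probe sets, 19071 had 1 gene in the platform annotation. In R 4.3.3 with limma 3.58.1, log2(signal + 15.8) was fitted over 4 groups of 3 (8 residual degrees of freedom, eBayes with trend). The constant was the 10th percentile of all values. The 7178 genes tested were those above the 40th percentile of mean log2(signal + 15.8), with Benjamini-Hochberg adjustment at 0.05. The scripts were tested on simulated data, where 42% of 50 genes given a log2 change of 0.5 at 72 h passed. With changes of 1 and -1, 90% and 84% passed. A gene that did not pass may therefore still have changed by such amounts. 0 value columns were left unmatched. The members and lists were chosen with earlier results of these data known. Genes given in full passed a test against vehicle or the F test, were NFE2L2, KEAP1, NQO1 or HMOX1, or had the lowest F test p of their role. GSR, TXNIP and AKR1C3 fall outside that rule and were added with their values known; other redox genes are up to 4 rises and 4 falls per time. Deviations of same-numbered arrays correlated positively in all 18 pairs, at 0.052 to 0.263, against -0.17 to 0.065 for arrays of other numbers. All 3 pairs were above 0.1 only between 8 and 24 h and between 24 and 72 h. The numbers thus appear to pair the arrays across all groups, vehicle included, and the main fit does not use this pairing. Alternatives were other added constants, no filter, quantile normalization, median centring, averaged probe sets, a replicate block, array weights, a fit of the groups compared, and leaving out each array.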

Additional observations from a re-analysis of the deposited data

Results flagged for a closer look

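Some genes changed by different amounts at different times, each difference being tested in the limma fit with Benjamini-Hochberg adjustment over all 7178 genes. GSTM3 was higher at 72 h than at 24 h by 0.57 on the log2 scale (SE 0.10, adjusted p = 0.044) and than at 8 h by 0.56 (adjusted p = 0.0078). The first of these was lost in 11 of 12 fits that left out 1 array and in 5 of 9 other alternatives, and on the U95 arrays GSTM3 had the opposite sign at 72 h (-0.60). IDH2 was higher at 24 h than at 8 h by 0.85 (adjusted p = 0.014), a call lost without 8 h replicate 2 (0.0715) or 3 (0.0975), without 24 h replicate 1 (0.0793) and with averaged probe sets (0.258). At 72 h IDH2 was higher than at 8 h by 1.22 (adjusted p = 2.1e-04). NOX4 was higher at 72 h than at 8 h by 1.35 (adjusted p = 0.011), lost without 8 h replicate 3 (0.064) or 72 h replicate 1 (0.0605). NQO2 was higher at 72 h than at 8 h by 0.93 (adjusted p = 0.013), lost without 8 h replicate 2 (0.0654) or 72 h replicate 1 (0.0605). With the replicate number as a block, which pairs same-numbered arrays of all groups, NOX4 and SELENOP were also higher at 24 h than at 8 h, by 1.05 and 0.79 (limma adjusted p = 0.0293 for both). The cause of these differences was not tested.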

How the results depend on the processing

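Over the genes described in full other than TXNIP and AKR1C3, 2194 values in the alternatives kept their side of the threshold, 26 gained the threshold, 48 lost it and 0 turned their direction while called. The count of defence genes at 8 h was 1 with array weights and 0 to 1 when 1 array was left out. At 24 h it was 1 without the filter, with median centring and in a fit of the groups compared, and 1 to 3 when 1 array was left out. Between 8 and 24 h it was 0 to 1 with 1 array left out. Between 24 and 72 h it was 0 without the filter, with quantile normalization, median centring and averaged probe sets and in a fit of the groups compared, and 0 to 1 with 1 array left out. Between 8 and 72 h it was 2 with array weights and 1 to 2 with 1 array left out. The count of other redox genes at 72 h was 6 to 10 with 1 array left out. Fewer arrays, fewer groups or more genes tested enter some of these fits, and otherwise the cause was not tested. No alternative moved the median change of all genes by 0.1. Labels and design text do not say that a replicate number marks a shared experiment for vehicle and treated cells, and same-numbered arrays correlated between 0.052 and 0.263 in their deviations, 12 of 18 pairs above 0.1, with 35 of 36 comparisons highest for the array's own number. With the replicate block 4 defence genes passed at 24 h (GCLC, GSR, GPX3 and TXNRD1), and FTL passed at 72 h with an adjusted p of 0.0388; at 72 h 4 passed. Between 8 and 24 h and between 24 and 72 h the block changed no other call of the genes given in full than those of NOX4 and SELENOP. Between 8 and 72 h SELENOP (0.89, limma adjusted p = 0.0061) and EPHX1 (-0.54, 0.0173) passed with the block but not in the main fit. That SELENOP difference also passed in a fit of the groups compared (0.0226) and without vehicle replicate 2 (0.0487) or 3 (0.0264), and that of EPHX1 without 72 h replicate 1 (0.0339).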
